A study of Mus musculus with 2 samples.

Results

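The genes described here make itaconate and nitric oxide or handle the arginine that nitric oxide and polyamines are made from. They are Acod1, Nos2, Gch1, Slc7a2, Ass1, Asl, Arg1, Arg2, Odc1 and Sat1, 10 of the 55536 genes measured, and were chosen by symbol. Total RNA without ribosomal RNA was sequenced from nuclei of bone-marrow-derived macrophages (BMDM), which are grown from marrow cells of the mouse, here of strain C57BL/6J. All samples belonged to 1 group: primary cells that received 100 ng/ml Lipid A for 12 h, spent 12 h without it after a wash, and were restimulated with 100 ng/ml for 120 min. Lipid A is the membrane anchor of bacterial lipopolysaccharide and activates TLR4. The 2 replicates are labelled as biological but carry the same donor label, so their spread may be partly technical, and sex and age are not given. A label calls the fraction nucleoplasmic where others call it the nucleus. Replicate 1 started from 1 µg of RNA and replicate 2 from 500 ng. Cells without Lipid A or with a single dose, and other fractions, were not analysed here, so the values are levels in 1 condition and do not show what Lipid A changed.

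Macrophages that sense bacteria redirect mitochondrial and amino acid metabolism. Acod1 takes cis-aconitate out of the tricarboxylic acid (TCA) cycle and converts it to itaconate, which inhibits succinate dehydrogenase and bacterial isocitrate lyase. Nos2 makes nitric oxide and citrulline from arginine, with tetrahydrobiopterin, the product of the pathway that Gch1 opens, as a cofactor. Arginine enters through transporters such as Slc7a2 and is rebuilt from citrulline by Ass1 and Asl. Arginases split arginine into urea and ornithine, which Odc1 turns into putrescine, the first polyamine, while Sat1 acetylates polyamines so that they can be exported or broken down. In mice Nos2 is a hallmark of macrophages activated by bacterial products, and Arg1 one of macrophages activated by interleukin-4.

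The libraries held 28450309 expected counts on genes in replicate 1 and 16940220 in replicate 2. Expected counts are estimated reads and need not be whole. Levels are given as TPM, a share of the library's transcripts after correction for length, with means ± SD over the 2 libraries. Genes of the mitochondrial genome took 4.15% of the counts in replicate 1 and 10.3% in replicate 2. Protein-coding and long non-coding genes of the nuclear genome held 19.6% of the TPM in replicate 1 and 25.8% in replicate 2. The rest was on all other rows, among them short and mitochondrial RNAs. TPM differences between the libraries partly carry that share of the protein-coding and long non-coding genes. All 8 macrophage markers reached TPM 1 in both libraries, and their median was 171 ± 11.0 TPM. Of 42 markers in 9 lists of other cell types, 2 reached TPM 1 in both libraries, Cd4 and Kdr, and 13 had 0 counts in both. Their summed level was 29.6 TPM in replicate 1 and 27.0 TPM in replicate 2. Cd4 made up much of it, with 13.9 TPM in replicate 1 and 13.4 TPM in replicate 2, while the T cell genes Cd3e and Cd3g stood at 0. A second deposited transcript table, from another quantification tool, also put Cd3d, Pecam1 and Alas2 at TPM 1 or more in both libraries. There Cd3d had 1.00 TPM in replicate 1 and 5.57 TPM in replicate 2. Pecam1 had 1.45 and 14.4 TPM, and Alas2 1.45 and 3.41 TPM. In bulk RNA, fewer cells that transcribe a gene and less RNA per cell cannot be told apart.

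The genes of itaconate and nitric oxide synthesis stood at very different levels in the same nuclei. By the gene table Acod1 was by far the most abundant of the 10 genes and Nos2 was about 51-fold below it, while Gch1 lay at the level of Nos2. By the second tool the ratio of Acod1 to Nos2 was smaller and Gch1 lay below Nos2. Gch1 there had 6.56 TPM in replicate 1 and 10.6 TPM in replicate 2, and Nos2 13.25 and 22.75 TPM. Of the 10 genes, 8 reached TPM 1 in both libraries, or 80.0%, against 39.6% of the 22015 protein-coding genes of the nuclear genome. The exceptions were the arginases Arg1 and Arg2. The median over the 10 genes was 9.21 ± 2.05 TPM, against 0.235 ± 0.0778 TPM over all protein-coding genes.

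Acod1 (ENSMUSG00000022126.6, chromosome 14 from 103046977 to 103056573, plus strand, mm10), the itaconate enzyme, had 727 TPM in replicate 1 and 834 TPM in replicate 2, a mean of 780.1 ± 75.7 TPM. These values rest on 85564 counts in replicate 1 and 42082 in replicate 2. Both libraries placed it at percentile 99.9 of protein-coding genes. The gene has 1 annotated transcript, so its level does not depend on how reads were divided among isoforms. The protein-coding genes nearest to it in level over the 2 libraries were Lilr4b, Tmsb4x and Mpeg1, at distances of 0.10, 0.13 and 0.23 on the log2(TPM + 1) scale. Mpeg1 encodes the pore-forming protein perforin-2 of macrophages and Tmsb4x an actin-binding peptide. The second transcript table, made by another quantification tool, gave Acod1 362 TPM in replicate 1 and 561 TPM in replicate 2, lower in both libraries but still the highest of the 10.

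Nos2 (chromosome 11 from 78920787 to 78960254, plus strand), the inducible nitric oxide synthase, had 14.2 TPM in replicate 1 and 16.5 TPM in replicate 2, or 15.3 ± 1.65 TPM. It rests on 2766 counts in replicate 1 and 1377 in replicate 2 and stood at percentiles 89.3 and 87.0 of protein-coding genes in these libraries. The ratio of Acod1 to Nos2 was 51.3 in replicate 1 and 50.5 in replicate 2, so it differed little between libraries whose depths differed widely. By the second tool that ratio was smaller, 4.70 on the log2 scale as a mean of both libraries, against 5.67 by the gene table. The genes nearest to Nos2 in level were Zfp384, Gch1 and Tm9sf1, at distances of 0.019, 0.024 and 0.029.

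Gch1 (chromosome 14 from 47153895 to 47189413, minus strand), GTP cyclohydrolase 1, which sets the rate of tetrahydrobiopterin synthesis, had 14.1 TPM in replicate 1 and 16.2 TPM in replicate 2, or 15.2 ± 1.55 TPM. Its level was 0.992 of that of Nos2 in replicate 1 and 0.984 in replicate 2, and the ranges of both genes overlapped. That near-equality holds for the gene table only, since the second tool gave Gch1 a mean log2 ratio to Nos2 of -1.05. It also counts an intronic transcript of Gch1, without which Gch1 had 9.82 TPM in replicate 1 and 9.63 TPM in replicate 2. A pair of processed pseudogenes lie within the span of Gch1, Gm49134 on the opposite strand and Gm18811 on the same one. They had 17 and 78 counts in replicate 1 and 22 and 40 counts in replicate 2, against 1914 and 974 counts of Gch1.

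**Figure D1:**
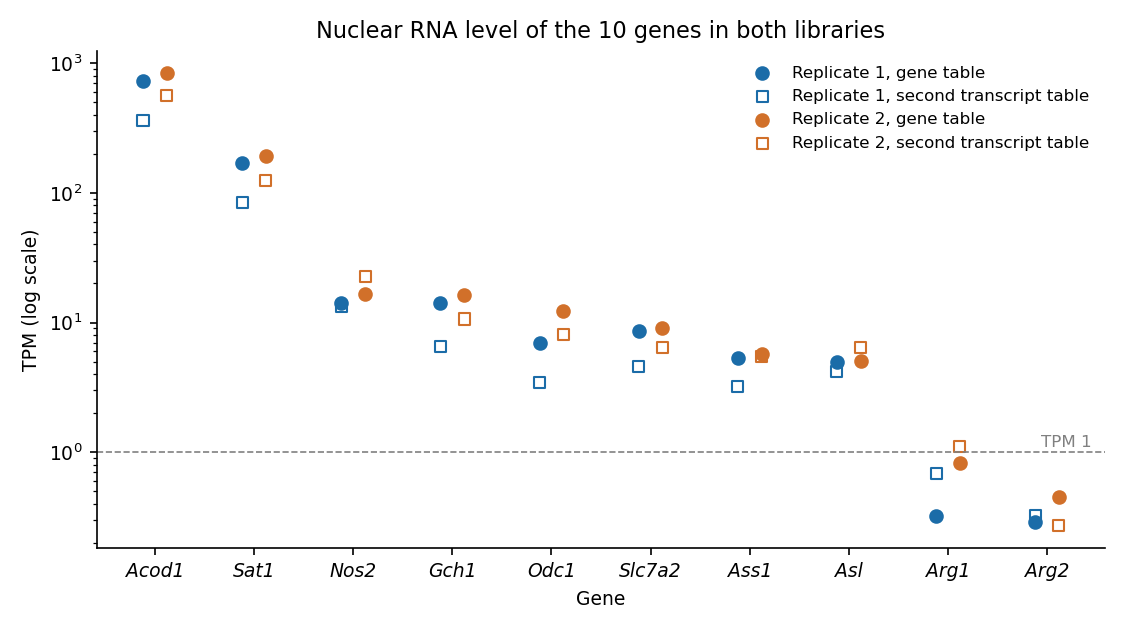
Level of each of the 10 genes in TPM on a log axis, ordered by mean TPM, with a point per library (replicate 1 blue, replicate 2 orange) for the gene table (filled circles) and for the second transcript table (open squares). Acod1 and Sat1 stand apart at the top and Arg1 and Arg2 at the bottom, and the other 6 genes have means between 5.04 and 15.3 TPM by the gene table. The dashed line marks TPM 1.

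Arginine supply genes were all present at moderate levels. Slc7a2 (chromosome 8 from 40862396 to 40922308, plus strand), the cationic amino acid transporter CAT-2, had 8.53 TPM in replicate 1 and 9.11 TPM in replicate 2, or 8.82 ± 0.41 TPM. Nos2 stood 1.66-fold above it in replicate 1 and 1.81-fold in replicate 2. Ass1 (chromosome 2 from 31470207 to 31520672, plus strand), argininosuccinate synthase, had 5.30 TPM in replicate 1 and 5.76 TPM in replicate 2. Asl (chromosome 5 from 130011258 to 130029247, minus strand), argininosuccinate lyase, which completes the return of citrulline to arginine, had 4.99 TPM in replicate 1 and 5.08 TPM in replicate 2. Both recycling enzymes were thus within 1.13-fold of each other in either library, and which was higher depended on the estimate. Ass1 was the higher by the deposited TPM, and Asl by the second tool. By the posterior mean TPM they were nearly equal, with Ass1 at 5.49 and Asl at 5.54 in replicate 1, and 6.02 and 6.01 in replicate 2.

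The arginases were near the limit of detection. Arg1 (chromosome 10 from 24915221 to 24927484, minus strand), the cytosolic arginase, had 0.32 TPM from 13 counts in replicate 1 and 0.82 TPM from 14 counts in replicate 2. Arg2 (chromosome 12 from 79130777 to 79156301, plus strand), the mitochondrial one, had 0.29 TPM from 17.3 counts in replicate 1 and 0.45 TPM from 11.5 counts in replicate 2. The ranges of both genes overlapped, and their order could not be told at this depth. The authors' posterior mean for Arg1 was 0.47 TPM with bounds of 0.22 and 0.76 in replicate 1, and 1.11 TPM with bounds of 0.51 and 1.81 in replicate 2. For Arg2 it was 0.31 TPM (0.17 to 0.45) in replicate 1 and 0.47 TPM (0.22 to 0.74) in replicate 2. With 1 TPM added to both genes, Nos2 stood 11.5-fold above Arg1 in replicate 1 and 9.62-fold in replicate 2.

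Other genes known to accompany Arg1 in macrophages activated by interleukin-4 did not share a level. Retnla, a secreted resistin-like protein, had 0 counts in both libraries. Chil3, a chitinase-like protein, had 2.15 TPM in replicate 1 and 1.84 TPM in replicate 2. Mrc1, the mannose receptor, had 17.9 TPM in replicate 1 and 40.7 TPM in replicate 2. Arg2 overlaps Gm48780 and the end of Vti1b on the opposite strand. The strand setting of the counting is not given in the sources used here, so reads from the shared stretches cannot be told apart. Of the 31-base words in the transcript of Arg2, 23.6% also occur in other genes' transcripts on either strand, and Vti1b had 7.13 TPM in replicate 1 and 8.33 TPM in replicate 2. Arg1 shares no such word with another gene.

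The polyamine enzymes were uneven. Sat1 (chromosome X from 155213132 to 155216449, minus strand), spermidine/spermine N1-acetyltransferase, had 169 TPM in replicate 1 and 192 TPM in replicate 2, or 180.1 ± 16.4 TPM, at percentile 99.4 of protein-coding genes in both libraries. Odc1 (chromosome 12 from 17544794 to 17551505, plus strand), ornithine decarboxylase, had 6.99 TPM in replicate 1 and 12.2 TPM in replicate 2, or 9.60 ± 3.69 TPM. The ratio of Odc1 to Sat1 was 0.0415 in replicate 1 and 0.0637 in replicate 2, so the catabolic gene stood well above the biosynthetic one in each library. The small nucleolar RNA gene Gm22748 lies within Odc1 on the same strand and had 1 count in replicate 1 and 0 in replicate 2. Odc1 had the widest relative spread of the 8 genes at TPM 1 or more. Odc1 also has a processed pseudogene, Gm7993, which holds 19.4% of the 31-base words of its transcripts, and Ass1 has Gm5424, which holds 43.1% of its words. Gm7993 had at most 0.02 TPM and Gm5424 at most 0.1 TPM in either library, and reads that match gene and pseudogene alike could have been assigned to either.

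By mean TPM the order was Acod1, Sat1, Nos2, Gch1, Odc1, Slc7a2, Ass1, Asl, Arg1 and Arg2. Of the 9 neighbouring pairs in this order, 6 had separate ranges over the 2 libraries. The ranges overlapped for Nos2 and Gch1, for Odc1 and Slc7a2, and for Arg1 and Arg2, so these pairs do not differ beyond their spread. By the posterior mean, by the second tool and in rescaled TPM, 5 neighbouring pairs were separate in each case, and the order of Ass1 and Asl turned with the first 2 of these.

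The pathways around the 10 genes were present in part. Of 53 further genes in 4 pathway lists, 36 reached TPM 1 in both libraries. Of 18 genes of the TCA cycle and of citrate and itaconate handling, 16 reached that level, with a median of 8.66 ± 2.46 TPM. Sdha, the catalytic subunit of the succinate dehydrogenase that itaconate inhibits, led with 30.4 ± 6.11 TPM. The citrate synthase Cs had 22.7 ± 6.24 TPM. Acod1 stood above both enzymes in each library.

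Other arginine and nitric oxide genes reached TPM 1 in both libraries in 5 of 11 cases, with a median of 1.23 ± 0.537 TPM. Slc3a2, the heavy chain shared by several amino acid transporters, had 157.3 ± 1.08 TPM. Its light chain Slc7a7, an arginine exporter, had 10.4 ± 0.778 TPM, and Slc7a1, the widely expressed arginine importer CAT-1, had 9.54 ± 2.06 TPM, and the ranges of Slc7a1 and Slc7a2 overlapped. The other nitric oxide synthases were at or near 0, with 1 count of the neuronal Nos1 in replicate 1 and none in replicate 2, and none of the endothelial Nos3 in either library. Ddah1, which breaks down natural inhibitors of nitric oxide synthases, and Agmat also had 0 counts in both. A count of 0 allows up to 3 counts, and such limits cover counting error only.

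The genes that follow Gch1 on the way to tetrahydrobiopterin, or that recycle it, were lower than Gch1. Of 6 such genes, 2 reached TPM 1 in both libraries, and the median was 0.892 ± 0.449 TPM. Pts, the next enzyme of the pathway, had 7.09 ± 2.31 TPM, the recycling enzyme Qdpr 5.02 ± 2.97 TPM and Spr, which carries out the last step, 0.955 ± 0.191 TPM. Gchfr, which encodes the feedback regulator of the Gch1 enzyme, had 0 counts in replicate 1 and 1 in replicate 2.

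Of 18 further polyamine and proline genes, 13 reached TPM 1 in both libraries, and the median was 4.83 ± 1.22 TPM. The lysosomal polyamine exporter Atp13a2 had 63.0 ± 21.8 TPM. Azin1, the antizyme inhibitor that protects the Odc1 protein from breakdown, had 54.8 ± 24.2 TPM. Eif5a, the translation factor that carries hypusine, a residue made from spermidine, had 45.9 ± 17.7 TPM. Sat2, the paralogue of Sat1, had 3 counts in replicate 1 and 1 in replicate 2. Sat1 was higher than each of these genes in both libraries.

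**Figure D2:**
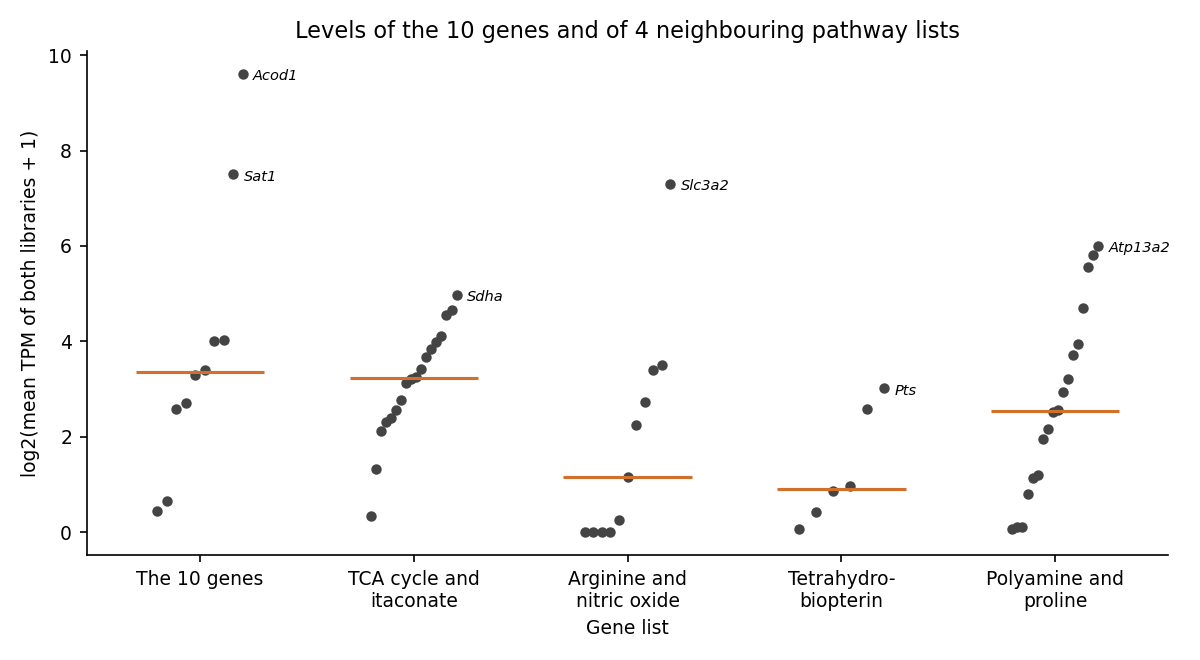
Level of each gene, as log2 of the mean TPM of both libraries plus 1, for the 10 genes and the 4 pathway lists. A point is a gene, the orange line is the median of its list, and the highest gene of each list is named, with Sat1 as the next of the 10 genes. Acod1 and Sat1 lie above every gene of the TCA and polyamine lists, and Slc3a2 is the pathway gene nearest to the level of Sat1.

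The annotation gives Sat1 7 transcripts, and in these nuclei most of its TPM was assigned to forms that do not encode the enzyme. Reads of RNA not yet spliced can fall on the introns that some of these forms keep. In nuclear RNA such reads cannot be told apart from those forms. Retained-intron transcripts, which keep an intron that the coding form removes, held 63.7% of the TPM of Sat1 in replicate 1 and 75.5% in replicate 2, or 69.6% ± 8.34. Genes with an annotated retained-intron transcript and a mean count of 10 or more, 6942 in all, had a median share of 23.6% in replicate 1 and 30.0% in replicate 2, and Sat1 stood at their percentiles 93.7 and 94.2. The protein-coding transcripts of Sat1 held 28.7% in replicate 1 and 19.1% in replicate 2. By the second tool the coding transcripts held 21.5% in replicate 1 and 12.5% in replicate 2 and the retained-intron transcripts 69.8% and 80.3%.

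Sat1 is known for a poison exon, a cassette exon that brings a premature stop codon into the message and whose skipping polyamines promote. In the annotation it has 110 bases and lies on the minus strand at chrX:155215121-155215230. Its opening bases at chrX:155215217-155215230 in mm10, from the GENCODE M21 transcript Sat1-207, are shown because they hold that stop. They read gttacagtctcTAG, where the capitals mark the stop codon at position 12 of the exon, counted from its first base, after 11 coding bases. The exon is held by Sat1-207, which is typed as a target of nonsense-mediated decay, and by Sat1-206, which also keeps the intron before it. Both transcripts together held 28.7% of the TPM of Sat1 in replicate 1 and 23.0% in replicate 2, and by the second tool 33.8% and 31.7%. Sat1-207 by itself held 7.54% in replicate 1 and 5.34% in replicate 2. The share of Sat1-206 also counts reads of the intron that it keeps, so the joint share is not a measure of spliced inclusion of the exon.

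The most abundant form of Sat1 was Sat1-205, with 36.5% of its TPM in replicate 1 and 54.2% in replicate 2. It starts within the intron after the cassette exon, and 770 of its 1275 bases lie outside the coding transcripts. The main coding form, Sat1-201, held 28.4% in replicate 1 and 17.5% in replicate 2, and Sat1-206 21.1% and 17.6%. In counts, the coding transcripts held 2204 of 8204 reads in replicate 1, a share of 26.9% (95% Wilson interval 25.9 to 27.8), and 709.7 of 4109 in replicate 2, a share of 17.3% (16.2 to 18.5). The intervals do not overlap, and they cover counting error only and not the division of reads among overlapping transcripts.

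**Figure D3:**
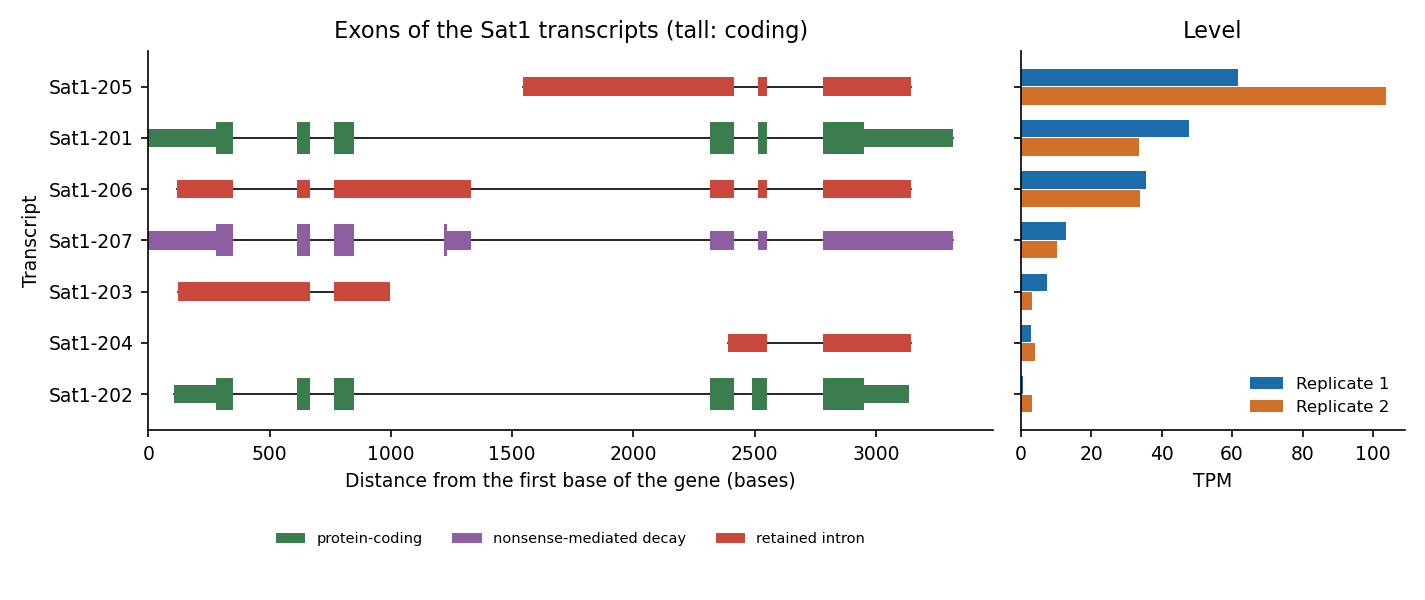
Exon structure of the annotated Sat1 transcripts, with distance in bases from the start of the gene along its direction of transcription, and their level in TPM in replicate 1 (blue) and replicate 2 (orange). Tall boxes are coding. The cassette exon lies in Sat1-206 and Sat1-207, and Sat1-205, which begins in the intron after it, has the highest level in both libraries.

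Slc7a2 is known for a pair of mutually exclusive exons, of which a transcript takes one or the other. The known products are a transporter of low and one of high affinity for arginine, and the high-affinity form is the one known from activated macrophages. The annotation does not say which exon gives which form, so they are called a and b in the order in which they lie. Exon a has 140 bases at chr8:40908056-40908195 and exon b 137 bases at chr8:40908398-40908534, both on the plus strand of mm10 and wholly coding. They are shown in full because the choice between them sets the affinity, with capitals at bases that do not match the other exon in an alignment:
Slc7a2 exon a: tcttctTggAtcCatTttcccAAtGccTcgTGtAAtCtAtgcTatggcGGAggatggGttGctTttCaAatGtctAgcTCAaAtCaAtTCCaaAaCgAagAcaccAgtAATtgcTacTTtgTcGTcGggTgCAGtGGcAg
Slc7a2 exon b: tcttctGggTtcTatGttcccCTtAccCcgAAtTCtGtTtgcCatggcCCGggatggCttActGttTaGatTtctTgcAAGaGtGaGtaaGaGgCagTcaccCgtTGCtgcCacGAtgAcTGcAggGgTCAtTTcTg
Of the 140 bases of exon a, 84 are identical in exon b, or 60.0%, and the bases that differ are spread along the whole exon.

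Transcripts with exon a, Slc7a2-202 and Slc7a2-203, held 61.9% of the TPM assigned to either exon in replicate 1 and 67.0% in replicate 2, or 64.4% ± 3.57. Those with exon b, Slc7a2-201 and Slc7a2-204, held 38.1% in replicate 1 and 33.0% in replicate 2. Both forms were thus present in both libraries, with exon a the more abundant. By the second tool exon a held 64.0% in replicate 1 and 62.4% in replicate 2. Gm26584, a long non-coding gene on the opposite strand, lies almost wholly within the span of Slc7a2 and had 3.64 TPM in replicate 1 and 3.34 TPM in replicate 2. Of the 31-base words of Slc7a2, 8.78% also occur in other genes.

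Gch1 has a coding transcript and a retained-intron transcript, and a large minority of its TPM was assigned to the intronic one. The retained-intron transcript Gch1-202 is a single exon of 3508 bases, of which 3476 lie outside the coding transcript. Reads of Gch1 RNA not yet spliced can fall on the same stretch, and they cannot be told apart from this transcript here. It held 30.2% of the TPM of Gch1 in replicate 1 and 40.7% in replicate 2, or 35.4% ± 7.48, and the second tool gave 30.5% and 40.6%. In counts it held 684 of 1914 reads in replicate 1, or 35.7% (95% Wilson interval 33.6 to 37.9), and 457 of 974 in replicate 2, or 46.9% (43.8 to 50.1). The coding form alone had 9.82 TPM in replicate 1 and 9.63 TPM in replicate 2, from 1230 and 517 counts. On the TPM scale the coding transcript was thus nearly equal in both libraries. The higher total in replicate 2 was, on that scale only, on the intronic form. With counts scaled so that the bulk of genes is equal between libraries, Gch1 as a whole was higher in replicate 1. Its log2 ratio, replicate 1 over replicate 2, was then 0.39.

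Odc1 differed from Sat1 in that most of its TPM was assigned to the coding form. Odc1-201 held 80.7% of its TPM in replicate 1 and 69.6% in replicate 2. The nonsense-mediated decay transcripts of Odc1, which by the transcript table were all Odc1-205, held 12.4% in replicate 1 and 18.9% in replicate 2, and by the second tool 11.4% and 16.9%. Its 5 retained-intron transcripts held 6.87% in replicate 1 and 11.5% in replicate 2, of which Odc1-207 held 1.43% and 5.73% of the gene's TPM. Each class other than the coding one was thus higher in replicate 2.

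Ass1, Asl and Nos2 were mostly of coding form by the transcript table, with less certain divisions. Ass1-201 held 78.1% of the TPM of Ass1 in replicate 1 and 90.6% in replicate 2, where the second tool gave 62.9% and 67.5%. Its retained-intron transcript Ass1-202 held 13.4% in replicate 1 and 9.38% in replicate 2, and Ass1-203 5.47% and 0%. The coding transcripts of Asl held 73.8% in replicate 1 and 56.1% in replicate 2, and its retained-intron transcript 21.2% and 24.0%. By the second tool the coding transcripts of Asl held 58.7% in replicate 1 and 50.6% in replicate 2. Within the coding transcripts of Asl, Asl-205 held 52.2% of the gene's TPM in replicate 1 and 32.1% in replicate 2, and Asl-202 19.6% and 24.0%. The processed transcript Asl-204 held 5.0% in replicate 1 and 19.9% in replicate 2. For Nos2 the first tool put all TPM on Nos2-201, while the second put 49.9% in replicate 1 and 48.9% in replicate 2 on a pair of transcripts with later first exons, so these data do not settle which start of Nos2 was in use. For Arg1, with 13 counts in replicate 1 and 14 in replicate 2, the table put 46.9% and 50.6% on the coding Arg1-201, 0% and 25.3% on Arg1-202 and 53.1% and 24.1% on Arg1-203, too few reads for a division to be read.

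**Figure D4:**
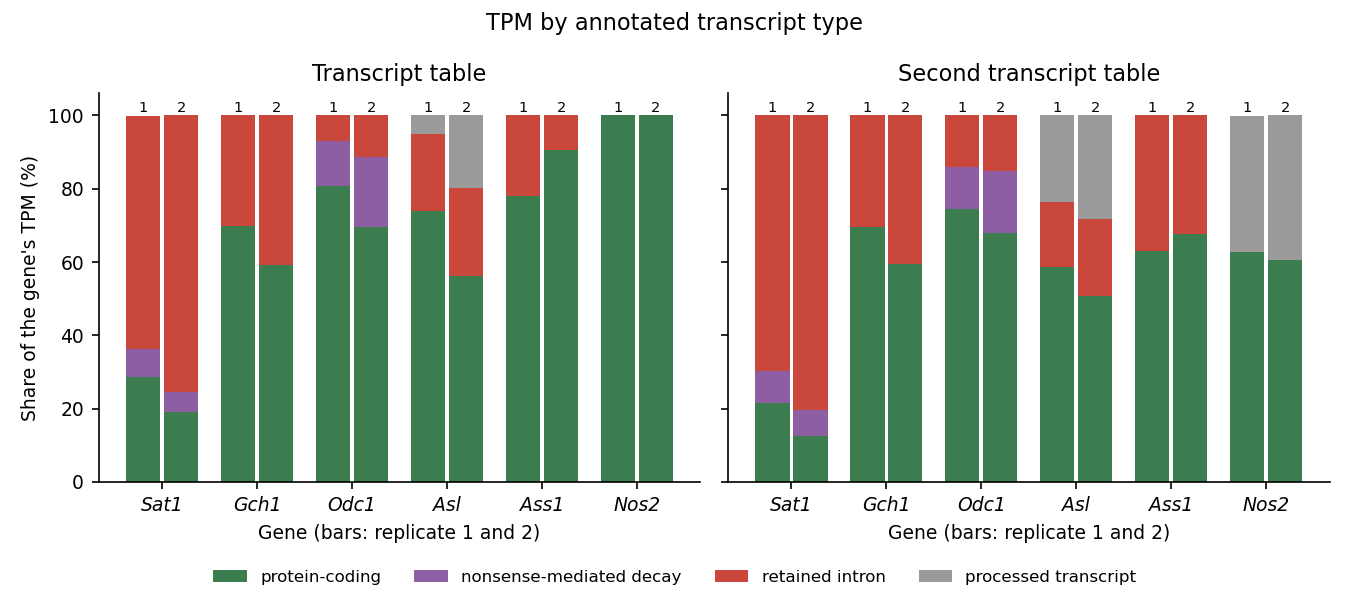
Share of TPM, in percent, by annotated transcript type for 6 of the genes, with bars 1 and 2 for the replicates, by the transcript table (left) and the second transcript table (right). Sat1 has the largest retained-intron share of these genes in both panels, 63.7% in replicate 1 and 75.5% in replicate 2 on the left, and the panels differ most for Nos2.

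Retained-intron shares were higher in replicate 2 for 4 of the 6 genes that have such a transcript, Sat1, Gch1, Asl and Odc1. Over all 6942 genes with such a transcript the share was higher in replicate 2 for 66.8%, so the 4 of 6 is close to the rate of the libraries as a whole. The mitochondrial share was also higher in replicate 2, and its part in these shares was not tested. The amount of starting RNA cannot be told apart from the replicate.

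Whether the replicates differed beyond counting error was asked with an exact binomial test, two-sided, of each gene's counts after TMM scaling, which sets the bulk of genes equal between libraries. The test compares these libraries and not conditions. Of the 10 genes, 7 were higher in replicate 1 at a Benjamini-Hochberg adjusted p of 0.05 or less over 14698 genes, 0 were higher in replicate 2 and 3 were not called. Among all genes tested 59.9% were called, 30.2% as higher in replicate 1 and 29.7% as higher in replicate 2. With replicate 1 over replicate 2, the median log2 ratio was 0.40 over the 10 genes and -0.0045 over all genes tested. Of the 10 genes, Asl alone also passed a fold of 1.5, as did 15.4% of all genes in the direction of replicate 1.

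The direction depends on the scale: on TPM all 10 genes were higher in replicate 2, as were 83.3% of the genes tested. In TPM rescaled to protein-coding and long non-coding genes of the nuclear genome, 3 of the 10 were higher in replicate 2, Arg1, Arg2 and Odc1. Among the tested genes of these types alone, 64.8% were higher in replicate 2 on that scale. On that scale Acod1 had 3711 TPM in replicate 1 and 3233 TPM in replicate 2, and Nos2 72.4 and 64.0 TPM.

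On TMM-scaled counts the log2 ratio of Acod1, replicate 1 over replicate 2, was 0.44 (95% exact interval 0.42 to 0.46). That of Nos2 was 0.42 (0.33 to 0.52, adjusted p by the exact test 1.74e-18), that of Gch1 0.39 (0.28 to 0.50) and that of Slc7a2 0.45 (0.35 to 0.55). Sat1 had 0.41 (0.36 to 0.47). The intervals of these 5 genes overlapped one another. Asl had the largest ratio of the 10, 0.77 (0.50 to 1.05), from 394 counts in replicate 1 and 154 in replicate 2. Ass1 had 0.35 (0.07 to 0.62, adjusted p by the exact test 0.0223), a call that was lost with library size as the scaling, at 0.18, and with TMM computed over protein-coding genes, at 0.26. Library size moved the split over all genes to 22.1% higher in replicate 1 and 39.2% higher in replicate 2, and TMM over protein-coding genes to 25.8% and 34.8%.

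The 3 genes not called were Odc1, Arg1 and Arg2. Odc1 had a log2 ratio of -0.10 (-0.27 to 0.08, adjusted p by the exact test 0.37) from 631 counts in replicate 1 and 449.8 in replicate 2. With library size as the scaling it was called higher in replicate 2, at -0.26. Arg1 had -0.69 (-1.90 to 0.51) and Arg2 -0.08 (-1.23 to 1.12), intervals that hold differences of over 2-fold in either direction for Arg2.

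The ratios can also be set beside the spread between the replicates rather than counting error. The common biological coefficient of variation, estimated from these same 2 libraries, was 0.335. It corresponds to an SD of 0.68 for a log2 ratio between 2 libraries. Of the 10 genes, 8 had a ratio within that SD, as did 67.4% of the genes tested, and Asl and Arg1 lay outside it. Because that SD comes from the ratios of these same libraries, it is not an independent measure of their size.

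**Figure D5:**
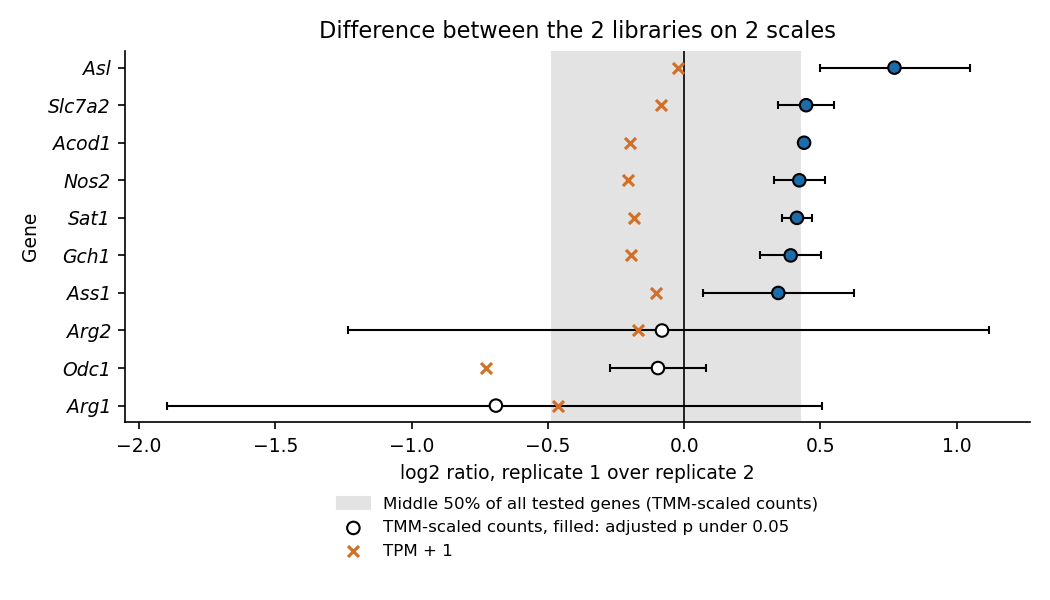
Log2 ratio, replicate 1 over replicate 2, of TMM-scaled counts for each of the 10 genes (circles, filled where the adjusted p is under 0.05), with bars for the 95% exact binomial interval, which covers counting error only. Crosses are the ratio of TPM + 1 and all lie below 0, and the grey band holds the middle 50% of all tested genes. The intervals of 7 genes lie above 0, with Asl highest at 0.77, and those of Odc1, Arg1 and Arg2 include 0.

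Of the 53 pathway genes, 43 had enough counts for this test. Of these, 17 were higher in replicate 1, 10 higher in replicate 2 and 16 were not called, against 30.2% and 29.7% of all genes tested. The arginine and nitric oxide list had 5 of 6 tested genes higher in replicate 1, among them Slc3a2 with a log2 ratio of 0.67, and none higher in replicate 2. Of the 5 tetrahydrobiopterin genes tested, 3 were higher in replicate 2 and none in replicate 1, unlike Gch1 itself. The TCA list had 6 of 17 higher in replicate 1, led by Sdhb at 0.95 and Sdhd at 0.81, and 2 higher in replicate 2. The polyamine and proline list had 6 of 15 higher in replicate 1 and 5 higher in replicate 2.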

How the data were processed

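The 2 samples, both of 1 group, are separate libraries of nuclear RNA. The authors deposited, for each, a gene table and a transcript table of expected counts and TPM, with the percent of a gene's TPM on each transcript, and a second transcript table of estimated counts and TPM. Column names are as RSEM writes them in the first 2 and as kallisto writes them in the last, which is called the second tool. Per the file headers, they were made on mm10 with GENCODE M21. The sources used here name no tool, version, aligner or strand setting. The posterior mean TPM and the bounds of its credibility interval, a signal on the TPM scale, are also the authors' deposited values, and the level of that interval is not stated.

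Here, symbols, gene types and coordinates (counted from 1) came from GENCODE M21, to which all 55536 gene identifiers matched, and exon sequences from its transcripts. The members and lists were chosen with earlier results of these data known. The text names all 10 members, the 3 highest genes of each pathway list, list members at 3 counts or fewer in both libraries, the 3 protein-coding genes nearest in log2(TPM + 1) to Acod1 and Nos2, overlapping genes, and transcripts with 5% or more of a gene's TPM. Sdhb, Sdhd and the pseudogenes were named after their values were seen. A gene that this rule names is not reported here.

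Rows that name no mouse gene, 1.79% of the counts in replicate 1 and 0.318% in replicate 2, were left out. Expected counts were rounded for the tests. With 1 library on each side no quasi-likelihood test could be fitted, so genes with at least 10 counts on average were compared by an exact binomial test given TMM-scaled library sizes (edgeR 4.0.16, R 4.3.3, scipy 1.17.1), with Benjamini-Hochberg adjustment. The procedure was tested on simulated data that held counting error only, so that check does not cover the spread between these replicates. The coefficient of variation came from an edgeR model with an intercept only. Ratios and intervals used a confidence level of 95%. Alternatives were library size, DESeq2 1.42.0 size factors, TMM over protein-coding genes, no count filter, a fold of 1.5, the second tool, the posterior mean, rescaled TPM, other detection limits, a pseudocount of 1 TPM and each library alone.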

Additional observations from a re-analysis of the deposited data

How the results depend on the processing

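No paired analysis was possible because the samples form 1 group. Of the 10 genes, the number that reached TPM 1 in both libraries was 8 with either library left out, with the second tool, with the posterior mean and at a limit of TPM 0.5. It was 7 at a limit of TPM 5 and 10 in rescaled TPM. Of the 9 neighbouring pairs in the order of the levels, 6 had separate ranges, and 5 by the posterior mean, by the second tool and in rescaled TPM. The median level was 7.76 to 10.7 TPM with a library left out, 5.84 TPM by the second tool and 40.5 TPM in rescaled TPM. The count of genes that differed between the libraries was 6 to 8 under the other scalings, filter and tool, and 1, Asl, when a fold of 1.5 was also asked for, which 15.4% of the genes tested passed in the direction of replicate 1. When library size replaced TMM, 22.1% of the genes tested were higher in replicate 1 and 39.2% higher in replicate 2, against 30.2% and 29.7%. By the second tool's counts the log2 ratios, replicate 1 over replicate 2, turned to 0.34 for Arg1, 1.56 for Arg2 and 0.14 for Odc1, and the cause was not tested. The mean log2 ratio of Ass1 to Asl turned to -0.0053 with the posterior mean and -0.31 with the second tool, from 0.13. The share of Slc7a2 exon a, the coding share of Sat1 and the decay-transcript share of Odc1 were set against the second tool after seeing the data, and the coding share of Sat1 moved to 17.0% as a mean of both libraries. The 13 and 14 counts of Arg1 limit any statement on its level.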

Other observations

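The last exon of Slc7a2 is annotated in long forms of 5971 and 5733 bases (Slc7a2-201 and Slc7a2-203) and shorter ones of 1719 and 1389 bases (Slc7a2-202 and Slc7a2-204), so each of the alternative exons a and b occurs with either end. The long forms held 56.2% of the TPM of Slc7a2 in replicate 1 and 64.9% in replicate 2, and 47.3% and 69.2% by the second tool. Both ends were present in both libraries by both tools. This grouping was chosen after the transcript values were seen.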
